A study of Mus musculus with 3 samples.

Results

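Phase II conjugation enzymes attach glutathione, glucuronic acid or sulfate to foreign and endogenous compounds, and esterases hydrolyse esters. The genes described here were those of the mouse array whose array name begins with Gst (classes a, k, m, o, p, t and z), Ugt, Sult or Ces followed by a number. To these were added Nqo1, Gclc, Gclm, Ephx1, Gpx2, Akr1b8 and Srxn1. This name rule found 57 genes, read by 79 probes at 88 spots, among 27961 named genes of the array. The rule uses names alone, although it was written with earlier results of these data known. Of the 57 genes, 57 passed the brightness filter in liver and 55 in stomach, where the glucuronosyltransferases Ugt2b1 and Ugt2b5 did not pass.

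RNA came from mice carrying a transgene (Tg) for AID, the cytidine deaminase that B cells use to diversify antibody genes. The 3 comparisons were a liver tumour against nontumour liver of the same AID Tg mouse, a gastric tumour against nontumour stomach of the same AID Tg mouse, and a lung tumour of an AID Tg mouse against normal lung of a wild-type (Wt) mouse. The lung comparison therefore differs by genotype and animal as well as by tumour, and these cannot be told apart. For age, sex and the promoter of the transgene the labels give nothing. Each organ had 1 2-colour array without a dye swap, so no difference has a replicate check and no test between conditions was made.

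The dyes leave the direction unsettled. By the labels each tumour carried Cy3. The headings of the authors' deposited table, in contrast, call genes that were brighter in Cy5 up in the tumour, and the design text speaks of genes up or down in tumours. Cy5 is thus likely the tumour channel, on the basis of that table, and values are given by channel as log2 of Cy5 over Cy3. If the labels hold instead, every sign turns. Tissue markers were present where the labels place them: the hepatocyte gene Apoa1 had a normalized intensity of 19599 in Cy5 and 24317 in Cy3 in liver, and the acid pump subunit Atp4b had 1835 in Cy5 and 55009 in Cy3 in stomach. On the stomach array 5 of 6 gastric markers, 5 of 5 squamous forestomach markers and 3 of 4 smooth muscle markers were at least 2-fold lower in Cy5, while 3 of 4 bile duct markers (Krt19, Krt7 and Epcam, with Spp1 at -0.20) and 2 of 4 measured intestinal markers (Vil1 and Krt20, with Fabp2 at 0.58 and Cdx2 at 0.06) were at least 2-fold higher. In the lung, the authors' down list held 3 of 3 alveolar type 1 markers, 2 of 3 alveolar type 2 markers, 1 of 3 club cell markers (Cyp2f2), 3 of 4 smooth muscle markers and 1 of 4 leukocyte markers. In liver none of the 5 measured hepatocyte markers and none of 4 bile duct markers reached 2-fold. The part of these differences in cell makeup in the values below was not tested, and in bulk RNA fewer cells of a type and less RNA per cell cannot be told apart.

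Glutathione S-transferases (Gst) couple glutathione to electrophiles, UDP-glucuronosyltransferases (Ugt) add glucuronic acid, sulfotransferases (Sult) add sulfate, and carboxylesterases (Ces) cleave esters and amides in drugs and lipids. The liver is the main site of these reactions, and stomach and airway epithelium carry their own sets. Several of the enzymes, among them Nqo1, Gclc, Gclm and alpha-class Gst, are textbook targets of NRF2, the transcription factor that KEAP1 holds in check until cells meet electrophiles or oxidants, and which binds antioxidant response elements.

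Across all families, few members moved by 2-fold in liver or stomach. On the liver array 3 of 57 members were at least 2-fold Cy5-high, where 0.155% of 25856 genes were, and no member was at least 2-fold Cy3-high, where 0.0696% of genes were. On the stomach array 2 of 55 were Cy5-high, against 0.876% of 25561 genes, and 1 was Cy3-high, against 1.42%. In either direction the counts were 3 of 57 in liver, against 0.224% of genes, and 3 of 55 in stomach, against 2.3%. Centring the arrays on the median in place of loess gave splits of 16 Cy5-high to 1 Cy3-high in stomach and of 7 to 0 in liver, against 2 to 1 and 3 to 0 here. Over all genes on the stomach array that setting gave 1024 Cy5-high and 239 Cy3-high genes, against 224 and 364 with loess. The median log2 ratio of members was 0.04 in liver, beside 0.01 over all genes, and 0.21 in stomach, beside 0.00 over all genes. Members were brighter than the average gene, with a median log2 brightness of 9.02 against 7.14 in liver and 7.84 against 7.20 in stomach. The SD between probes of a gene, pooled over members with several probes, was 0.40 in liver (19 genes) and 0.31 in stomach (15 genes).

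**Figure D1:**
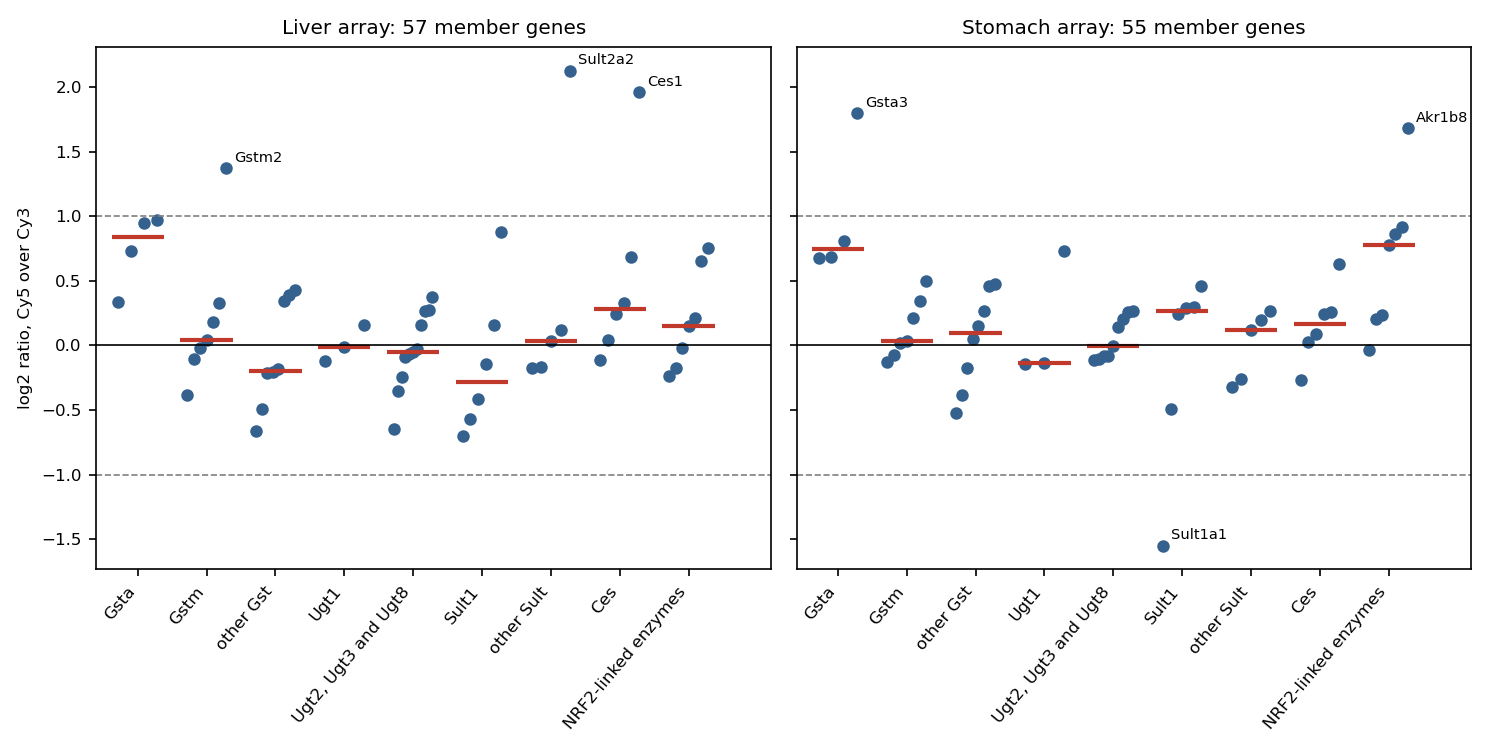
Log2 ratio of Cy5 over Cy3 (y axis) of each measured member gene on the liver array (left) and the stomach array (right), by enzyme family along the x axis. Points are genes, red bars are family medians, dashed lines mark 2-fold, and genes past 2-fold are named; the 4 Gsta genes lie above 0 on both arrays, with medians of 0.84 in liver and 0.75 in stomach.

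The alpha-class glutathione transferases were the family with every gene on the Cy5 side on both arrays. These enzymes conjugate lipid peroxidation products and also reduce peroxides. All 4 genes were above 0 in liver (median 0.84, range 0.33 to 0.97) and in stomach (median 0.75, range 0.67 to 1.80), and the family medians were above 0 under each of the 7 other processing settings tried, at 0.82 to 1.21 in liver and 0.69 to 1.90 in stomach. Over all genes 52.9% were above 0 in liver and 50.2% in stomach.

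Gsta1 had a normalized intensity of 2134 in Cy5 and 1106 in Cy3 on the liver array, a log2 ratio of 0.95 (scanner error 0.18, 1 probe). Its close relative Gsta2 had 1624 in Cy5 and 830.0 in Cy3 there, a log2 ratio of 0.97 (scanner error 0.18). Gsta3 had 5171 in Cy5 and 3110 in Cy3 there, a log2 ratio of 0.73 (SD 0.01 between 2 probes). In this normalization all 3 were brighter in Cy5 by less than 2-fold. Gsta1 and Gsta2 lay within their scanner error of 2-fold, and the scanner software's ratio put Gsta2 at 1.02. Gsta4, known for clearing the lipid aldehyde 4-hydroxynonenal, had 277.9 in Cy5 and 220.5 in Cy3 in liver, a log2 ratio of 0.33 from a probe printed at 10 spots (SD 0.04 between spots). Its scanner error of 0.27 was nearly the size of that ratio, and it was in no liver list of the authors.

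In stomach Gsta3 had 3530 in Cy5 and 1014 in Cy3 and was 3.48-fold higher in Cy5 (log2 ratio 1.80, SD 0.21 between 2 probes). It was the highest member of that array. Gsta4 had 5281 in Cy5 and 3008 in Cy3 (log2 ratio 0.81, spot SD 0.01, scanner error 0.17), and Gsta2 had 27368 in Cy5 and 16978 in Cy3 (log2 ratio 0.69, scanner error 0.17). Gsta1 had 36544 in Cy5, where its spot was saturated, and 22894 in Cy3 (log2 ratio 0.67, scanner error 0.17).

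In the authors' deposited lung table, whose lists start at 2-fold, Gsta2 (log2 ratio 3.92) and Gsta4 (3.38) were in the up list, and Gsta1 and Gsta3 were in neither list. Absence from a list does not bound a ratio: 18 saturated liver spots and 20 saturated stomach spots had scanner p-values as low as the listed spots, and 0 of them were listed. Whether Gsta1 was saturated on the lung array was not analysed here.

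Gsta1, Gsta2, Gsta4 and the glutathione synthesis gene Gclc lie in 1 block of chromosome 9, in the order Gclc, Gsta4, Gsta1, Gsta2. All 4 were above 0 in liver and in stomach, none of them at 2-fold in the normalization used here. Of 6 other genes on the design within this block, the kinase gene Cilk1 (array name Ick) was in the lung up list at 1.72 and none was in the down list. Gsta1 and Gsta2 gave near-equal ratios on both arrays, and a probe of such close relatives can also bind the other's transcript, which was not tested. Their promoters are shown because these genes gave like ratios. The windows of 300 bases across the gene starts are from RefSeq, build GRCm38.p6, at chr9:78230419-78230718 (plus strand) for Gsta1, chr9:78347096-78347395 (minus strand) for Gsta2 and chr1:21240335-21240634 (plus strand) for Gsta3. Capitals mark the longest run shared by Gsta1 and Gsta2, and in Gsta3 a match to the antioxidant response element core TGACNNNGC.
Gsta1: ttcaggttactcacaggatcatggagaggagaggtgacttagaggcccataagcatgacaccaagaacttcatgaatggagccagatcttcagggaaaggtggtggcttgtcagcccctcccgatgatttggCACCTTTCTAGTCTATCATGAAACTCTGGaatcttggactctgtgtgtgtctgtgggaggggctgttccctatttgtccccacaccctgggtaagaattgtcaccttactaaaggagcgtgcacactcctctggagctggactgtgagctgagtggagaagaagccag
Gsta2: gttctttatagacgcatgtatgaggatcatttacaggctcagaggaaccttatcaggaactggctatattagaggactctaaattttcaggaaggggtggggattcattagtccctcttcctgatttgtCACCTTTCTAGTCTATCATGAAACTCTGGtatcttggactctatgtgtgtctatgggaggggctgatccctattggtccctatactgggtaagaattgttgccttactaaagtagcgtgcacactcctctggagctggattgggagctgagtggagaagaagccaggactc
Gsta3: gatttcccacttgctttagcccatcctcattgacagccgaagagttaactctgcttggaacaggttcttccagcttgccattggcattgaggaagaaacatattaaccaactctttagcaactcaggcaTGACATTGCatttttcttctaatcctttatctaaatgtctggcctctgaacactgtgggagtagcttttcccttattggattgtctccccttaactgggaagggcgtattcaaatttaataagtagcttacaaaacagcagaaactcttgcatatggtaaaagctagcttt
The shared run was 29 bases long, and the Gsta1 and Gsta2 windows were identical at 232 of 289 aligned bases (80.3%). The core TGACNNNGC, searched on both strands, was in 5 of the 49 members with a promoter in the RefSeq table (Gclm, Gsta3, Gstm5, Gstm7 and Srxn1), against 14.0% of 27025 genes, and was not in these windows of Gsta1 or Gsta2. Such a match is a description of the letters in the window.

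The mu-class transferases, which conjugate aryl and epoxide compounds, did not shift as a family in liver or stomach, with medians of 0.04 on both arrays. Gstm2 stood apart in liver, with 1850 in Cy5 and 714.6 in Cy3, 2.59-fold higher in Cy5 (log2 ratio 1.37, scanner error 0.20, 1 probe). In stomach Gstm2 had 2193 in Cy5 and 2167 in Cy3 (log2 ratio 0.02, scanner error 0.16), so its channels did not differ beyond the scanner error there. The lowest of the class in liver was Gstm5, best known from brain and testis, at 437.2 in Cy5 and 569.1 in Cy3 (log2 ratio -0.38). In stomach the range ran from Gstm6, with 141.6 in Cy5 and 154.6 in Cy3 (log2 ratio -0.13), to Gstm3, with 7940 in Cy5 and 5622 in Cy3 (log2 ratio 0.50).

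Of the 57 members 25 were in a lung list, against 19% of all genes. The lung table placed 3 of 7 mu-class genes in the down list and none in the up list. Gstm1, a major hepatic isoform in mice, was at -3.24 (probes at -3.72 and -2.76), Gstm3 at -3.24 and Gstm2 at -2.09. Among all genes 12.3% had a probe in the lung down list and 6.78% in the up list. In the order of the genome the class reads Gstm5, Gstm7, Gstm6, Gstm3, Gstm2, Gstm1, Gstm4 on chromosome 3, so the 3 listed genes are neighbours. Gstm2 was thus higher in Cy5 in liver and lower in Cy5 in lung, and Gstm3 was in the authors' stomach up list and lung down list. Gstm1 was in the stomach up list by 1 of its 2 probes, at log2 ratios of 0.50 for the listed probe and 0.18 for the other in the normalization used here. Transcripts of these genes are alike in sequence, and how far the probes tell them apart was not tested.

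**Figure D2:**
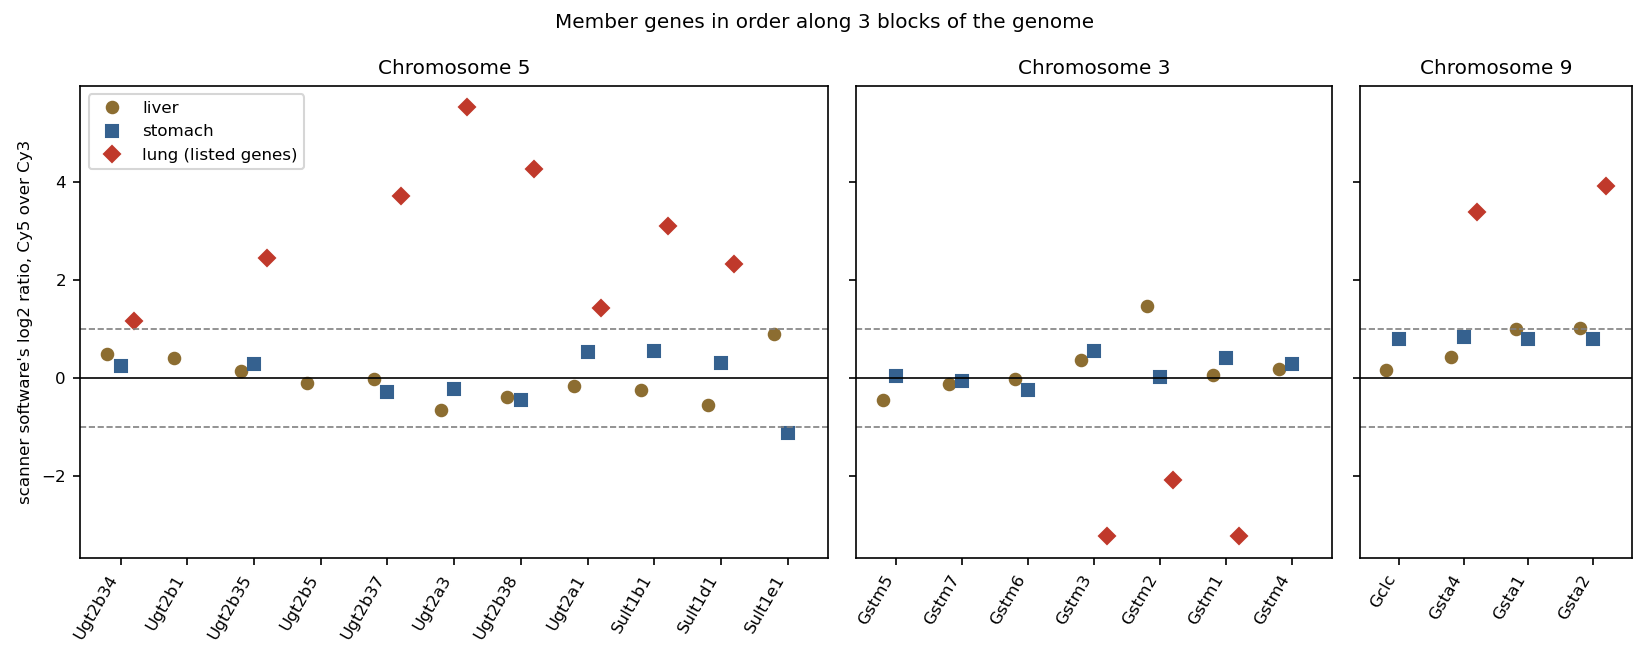
Log2 ratio of Cy5 over Cy3 from the scanner software (y axis) of member genes in genome order along blocks of chromosomes 5, 3 and 9. Circles are liver, squares stomach and diamonds the lung values of listed genes, so a missing diamond is an unlisted gene. In the chromosome 5 block 8 of 11 genes are in the lung up list (6.78% of all genes). In the chromosome 3 block 3 neighbouring Gstm genes are in the lung down list (12.3% of all genes).

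The other glutathione transferases went both ways around medians of -0.20 in liver and 0.10 in stomach, and none reached 2-fold. Gsto1, an omega-class enzyme that reduces dehydroascorbate and methylated arsenic, was the lowest in liver, with 1035 in Cy5 and 1642 in Cy3 (log2 ratio -0.67, scanner error 0.17). Gstt2, a theta-class enzyme, was the highest, with 601.8 in Cy5 and 447.0 in Cy3 in liver (log2 ratio 0.43) and 254.9 in Cy5 and 183.6 in Cy3 in stomach (log2 ratio 0.47, scanner error 0.33). Gstp1, the pi-class enzyme used as a marker of preneoplastic foci in rat liver, had 6436 in Cy5 and 9052 in Cy3 in liver (log2 ratio -0.49, SD 0.01 between 2 probes). In stomach, where Gsto1 was saturated in Cy5 (log2 ratio 0.27), Gstp1 had 4733 in Cy5 and 3431 in Cy3 (log2 ratio 0.46, SD 0.19), so its sides differed between the organs, and the authors' table listed it down in liver and up in stomach. Gstz1, which isomerises maleylacetoacetate in tyrosine breakdown, was the lowest in stomach, with 140.3 in Cy5 and 202.1 in Cy3 (log2 ratio -0.53, scanner error 0.41). It was also the 1 gene of this group in a lung list of the authors, down at -1.72.

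No glucuronosyltransferase reached 2-fold in liver or stomach as a mean over its probes. In stomach Ugt1a1, Ugt1a9, Ugt2a1, Ugt2a3, Ugt2b37, Ugt2b38, Ugt3a1 and Ugt8a were dim. Their scanner errors there, 0.62 to 3.39, exceeded their ratios, so these genes carry no direction in stomach. The 3 Ugt1 genes had medians of -0.01 in liver and -0.14 in stomach. Ugt1a1, the bilirubin-conjugating enzyme, had 291.6 in Cy5 and 317.1 in Cy3 in liver (log2 ratio -0.12). The lowest Ugt1 gene in stomach was Ugt1a9, with 67.0 in Cy5 and 73.9 in Cy3 (log2 ratio -0.14, scanner error 2.59), which is too dim for a direction. Ugt1a6b, a phenol-conjugating enzyme, was the highest on both arrays, with 1288 in Cy5 and 1155 in Cy3 in liver (log2 ratio 0.16, SD 0.07 between 2 probes) and 622.2 in Cy5 and 374.9 in Cy3 in stomach (log2 ratio 0.73, SD 0.90). The liver intensities average a bright probe (14576 in Cy5 and 12650 in Cy3) and a dim probe (113.8 in Cy5 and 105.5 in Cy3, scanner error 0.83). The stomach probes disagreed: the probe that the file places at chr1:88122519-88122578 had 3163 in Cy5 and 1225 in Cy3 (log2 ratio 1.37, scanner error 0.19), and the probe at chr1:88010877-88010936 had 122.4 in Cy5 and 114.8 in Cy3 (log2 ratio 0.09, scanner error 0.77). No source used here names the build of these positions. The file places the Ugt1a1 probe between these 2 probes, at chr1:88115927-88115986. Which Ugt1 transcripts each probe reads was not tested, so the ratio of 1.37 may not be that of Ugt1a6b alone. No Ugt1 gene was in a lung list.

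The Ugt2, Ugt3 and Ugt8 genes conjugate steroids, bile acids and, for Ugt8a, the galactose of myelin lipids. None of 11 in liver and none of 9 measured in stomach reached 2-fold, with medians of -0.05 in liver and -0.01 in stomach. Ugt2a3 was the lowest on both arrays, with 1982 in Cy5 and 3106 in Cy3 in liver (log2 ratio -0.65, scanner error 0.17) and 100.3 in Cy5 and 108.2 in Cy3 in stomach (log2 ratio -0.11, scanner error 0.94). The highest were Ugt2b34 in liver, with 327.8 in Cy5 and 252.1 in Cy3 (log2 ratio 0.38, scanner error 0.25), and Ugt8a in stomach, with 106.1 in Cy5 and 88.0 in Cy3 (log2 ratio 0.27, SD 0.26 between 2 probes). For Ugt3a1, which uses N-acetylglucosamine, the Cy3 signal in stomach was not well above background, and 73.8 in Cy5 and 66.8 in Cy3 gave no direction beyond the scanner error of 3.39 log2 units.

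Of these 11 genes 6 were in the lung up list, which held 6.78% of all genes, and none was in the down list, which held 12.3%. Ugt2b1, Ugt2b5, Ugt3a1, Ugt3a2 and Ugt8a were in neither list and have no lung value. Ugt2a3 was the highest of all members, at a log2 ratio of 5.51. Ugt2b38 followed at 4.25, Ugt2b37 at 3.71 (probes at 4.38 and 3.03) and Ugt2b35 at 2.44. The other 2 were Ugt2a1, an olfactory and epithelial isoform, at 1.41 from 1 of its 3 probes, and Ugt2b34 at 1.15.

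Sulfotransferases of class 1, which act on phenols, oestrogens and thyroid hormones, showed the 1 member that was 2-fold lower in Cy5 on either array. Sult1a1, the main phenol sulfotransferase, had 187.9 in Cy5 and 550.7 in Cy3 in stomach, 2.93-fold lower in Cy5 (log2 ratio -1.55, scanner error 0.26, 1 probe). In liver it had 14874 in Cy5 and 19869.7 in Cy3 (log2 ratio -0.42, scanner error 0.17). It was the 1 member in the authors' stomach down list and was in neither lung list.

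The lowest and highest of the class in liver were Sult1c1, with 578.4 in Cy5 and 941.1 in Cy3 (log2 ratio -0.70, scanner error 0.18), and the oestrogen sulfotransferase Sult1e1, with 6766 in Cy5 and 3678 in Cy3 (log2 ratio 0.88, scanner error 0.18). In stomach Sult1b1, active on thyroid hormones, was the highest, with 689.7 in Cy5 and 501.0 in Cy3 (log2 ratio 0.46, SD 0.01 between 2 probes). Sult1e1 in stomach had 84.3 in Cy5 and 118.2 in Cy3 (log2 ratio -0.49, scanner error 0.92), and the scanner software's own ratio put it at -1.14. Sult1d1, known for sulfating catecholamines, had 6959 in Cy5 and 10352 in Cy3 in liver (log2 ratio -0.57, scanner error 0.17). In the lung up list were Sult1c2 at 3.99, Sult1b1 at 3.08 (probes at 4.78 and 1.39), Sult1d1 at 2.31 and Sult1c1 at 1.80, and no Sult1 gene was in the down list. Sult1c1, Sult1d1 and Ugt2a3 were thus in the authors' liver down list and lung up list. Ugt2a1 was in both lists through different probes: the probe listed in liver (-0.61) was in no lung list, the probe listed in lung was in no liver list, and the other probe was at 0.27 in liver.

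Of the 16 members in the lung up list, 8 belong to a block of chromosome 5 that runs Ugt2b34, Ugt2b1, Ugt2b35, Ugt2b5, Ugt2b37, Ugt2a3, Ugt2b38, Ugt2a1, Sult1b1, Sult1d1, Sult1e1. The listed genes are Ugt2b34, Ugt2b35, Ugt2b37, Ugt2a3, Ugt2b38, Ugt2a1, Sult1b1 and Sult1d1, beside 6.78% of all genes in that list. None of the 11 was in the down list, which held 12.3% of all genes. How far the probes tell the transcripts of related Ugt2 genes apart was not tested, so the 8 need not be 8 separate changes. No other named gene on the design lies inside the block. In liver and stomach none of its genes reached 2-fold, with 4 of 11 above 0 in liver and 4 of 9 in stomach. In stomach Ugt2a1, Ugt2a3, Ugt2b37, Ugt2b38 and Sult1e1 were dim, with scanner errors of 0.81 to 2.84 that exceed their ratios. The stomach counts therefore say little about these genes. The count was 7 where every probe of a gene had to be listed and 6 at 3-fold or more, both settings chosen after the lung values were seen. The antioxidant response element core TGACNNNGC was in none of the 11 promoter windows of the block, beside 14.0% of 27025 genes. At that share none among 11 says little about the block, and the windows hold only 300 bases.

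**Figure D3:**
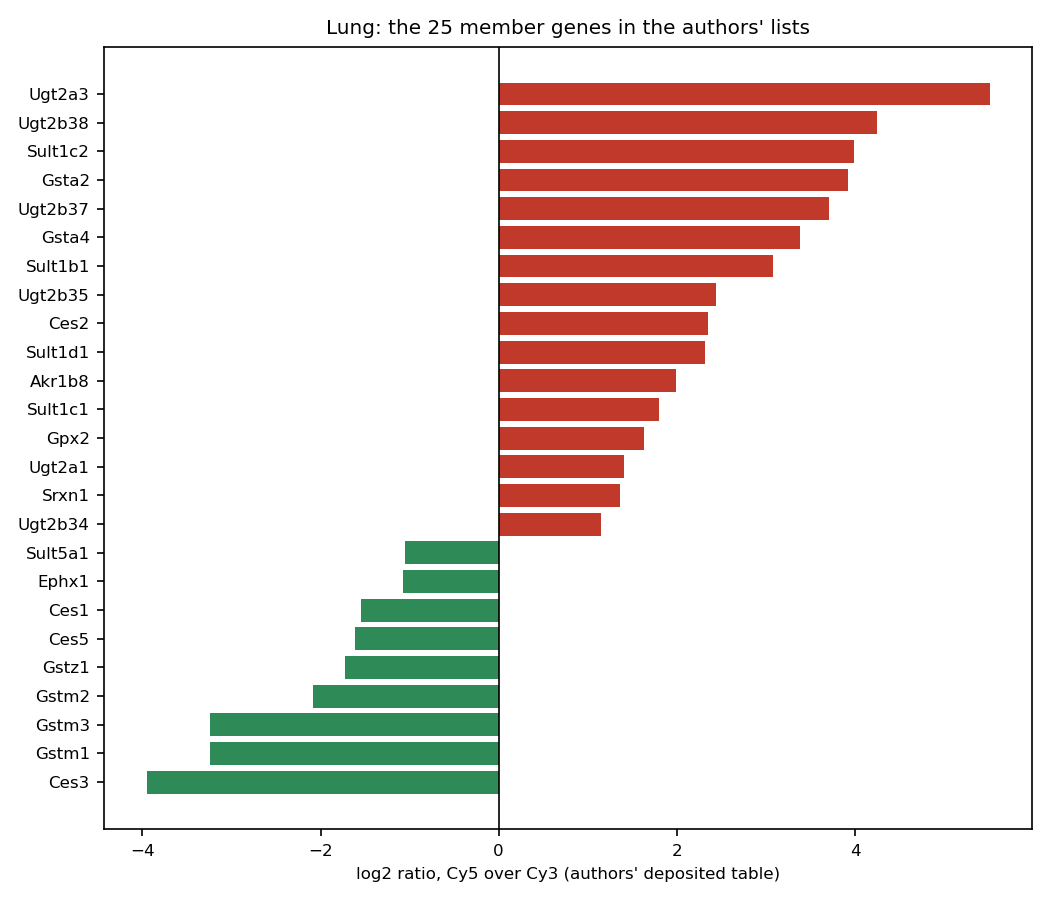
Log2 ratio of Cy5 over Cy3 (x axis) in the authors' deposited lung table for the 25 member genes it lists, as bars from 0, averaged over listed probes. Red bars are the 16 genes of the up list and green bars the 9 genes of the down list, from Ugt2a3 at 5.51 to Ces3 at -3.95.

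Of the other sulfotransferases, Sult2a2, which sulfates hydroxysteroids and bile acids, was the highest member in liver. It had 457.0 in Cy5 and 104.6 in Cy3, 4.37-fold higher in Cy5 (log2 ratio 2.13). Its probes differed in size with an SD of 1.26: 1 probe had 932.4 in Cy5 and 115.1 in Cy3 (log2 ratio 3.02), and the other had 224.0 in Cy5 and 95.0 in Cy3 (log2 ratio 1.24). Both probes were past 2-fold. In stomach it was too dim for a direction, with a Cy3 signal not well above background (78.4 in Cy5 and 65.1 in Cy3, scanner error 3.99 log2 units). Sult3a1, an amine sulfotransferase, was the lowest of these genes in liver, at 122.7 in Cy5 and 138.1 in Cy3 (log2 ratio -0.17, scanner error 0.55), and the cholesterol sulfotransferase Sult2b1 was the lowest in stomach, at 192.2 in Cy5 and 240.8 in Cy3 (log2 ratio -0.33, scanner error 0.32). Both differences were about the size of the scanner error or smaller. In lung Sult5a1 was in the down list at -1.05, and no gene of this group was in the up list.

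Of 6 carboxylesterases 5 were above 0 in liver (median 0.29), where 52.9% of all genes were, and 5 in stomach (median 0.17), where 50.2% were. In stomach Ces1, Ces3, Ces5, Ces6 and Ces7 were dim, with scanner errors of 0.60 to 1.73 that exceed their ratios, so those 5 carry no direction there. Ces1, now Ces1g, a hepatic esterase active in triglyceride handling, had 1151 in Cy5 and 295.5 in Cy3 in liver and was 3.89-fold higher in Cy5 (log2 ratio 1.96, SD 0.10 between 2 probes). Ces7, now Ces5a and known from epididymis, was the lowest in liver, with 171.9 in Cy5 and 186.2 in Cy3 (log2 ratio -0.11, SD 0.09). Ces2, now Ces2c, had 522.3 in Cy5 and 324.7 in Cy3 in liver (log2 ratio 0.69), but its 2 probes were at 1.29 and 0.08. In stomach Ces2 was the highest of the family, with 597.9 in Cy5 and 386.2 in Cy3 (log2 ratio 0.63, SD 0.41). Ces3, now Ces1d and known as a hepatic triacylglycerol hydrolase, was the lowest in stomach, with 120.0 in Cy5 and 144.3 in Cy3 (log2 ratio -0.27, scanner error 0.60).

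In the lung table Ces3 was the lowest of all members at -3.95, Ces5 (now Ces2e) was at -1.61 from 1 of 2 probes and Ces1 was at -1.55 (SD 0.14 between 2 probes). Ces2 was in the up list at 2.35 from 1 of 2 probes. Ces1 therefore took opposite sides in liver and lung. The genes lie in separate blocks of chromosome 8. In the block of Ces3, Ces1 and Ces7, the neighbour Ces1e (array name Es22) was also in the down list, at -2.39, and in the block of Ces6 (now Ces2a), Ces2 and Ces5, the neighbour Ces2b (array name BC015286) was in the up list, at 1.17. The alveolar markers Sftpa1 (-4.29), Ager (-3.95) and Aqp5 (-3.23) and the club cell gene Cyp2f2 (-5.15) were in the same down list, and their part in the esterase and Gstm values was not tested.

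Of the 7 single enzymes linked to NRF2, 6 were above 0 in stomach (median 0.78), where 50.2% of all genes were, and 4 were above 0 in liver (median 0.15), where 52.9% were. Of the 6 in stomach, Akr1b8 was past 2-fold, and Gpx2, Nqo1 and Gclc were between their error and 2-fold. Gclm was within its error, as was Srxn1 as a mean over its probes. Akr1b8, an aldo-keto reductase of reactive aldehydes, had 10177 in Cy5 and 3170 in Cy3 in stomach, 3.21-fold higher in Cy5 (log2 ratio 1.68, scanner error 0.21). In liver it was dim, at 223.6 in Cy5 and 192.5 in Cy3 (log2 ratio 0.22, scanner error 0.32). Gpx2, the glutathione peroxidase of gut epithelium, had 4613 in Cy5 and 2443 in Cy3 in stomach (log2 ratio 0.92, scanner error 0.18) and 286.9 in Cy5 and 182.1 in Cy3 in liver (log2 ratio 0.66, scanner error 0.30). It was brighter in Cy5 in both organs, by less than 2-fold.

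Nqo1, the quinone reductase that serves as the common readout of NRF2, had 5468 in Cy5 and 3010 in Cy3 in stomach (log2 ratio 0.86, scanner error 0.18) and 333.2 in Cy5 and 197.5 in Cy3 in liver (log2 ratio 0.75, scanner error 0.27). Gclc, the catalytic subunit of the rate-limiting enzyme of glutathione synthesis, had 2742 in Cy5 and 1597 in Cy3 in stomach (log2 ratio 0.78, scanner error 0.17) and 839.7 in Cy5 and 756.7 in Cy3 in liver (log2 ratio 0.15, scanner error 0.17). Its partner Gclm, the modifier subunit, was dim, with 155.4 in Cy5 and 134.7 in Cy3 in stomach (log2 ratio 0.21, scanner error 0.54) and 215.8 in Cy5 and 254.0 in Cy3 in liver (log2 ratio -0.24, scanner error 0.28). The catalytic subunit thus passed its scanner error in stomach and the modifier subunit did not. Srxn1, which restores overoxidised peroxiredoxins, had 202.1 in Cy5 and 171.8 in Cy3 in stomach (log2 ratio 0.23, SD 0.33 between 3 probes) and 258.7 in Cy5 and 291.2 in Cy3 in liver (log2 ratio -0.17, SD 0.15). Ephx1, the microsomal epoxide hydrolase, was near equal in both channels, with 242.2 in Cy5 and 247.6 in Cy3 in stomach (log2 ratio -0.03, SD 0.02) and 540.2 in Cy5 and 548.8 in Cy3 in liver (log2 ratio -0.02, SD 0.06).

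In lung 3 of the 7 were in the up list (6.78% of all genes), Akr1b8 at 1.99, Gpx2 at 1.63 and Srxn1 at 1.37 (SD 0.28 between 3 probes), and 1, Ephx1, was in the down list (12.3% of all genes) at -1.07 (SD 0.02 between 2 probes). Nqo1, Gclc and Gclm were in neither list. With loess values in liver and stomach, Akr1b8 was the 1 member past 2-fold on the same side in 2 organs, stomach and lung. By the scanner software's ratio, the scale of the lung table, Gsta2 was past 2-fold in liver (1.02) as well as in lung (3.92). That ratio also put Sult2a2 past 2-fold in liver (3.36) and in stomach (2.32), where its scanner error was 3.99. The same Ces2 probe was at 1.29 in liver with loess and at 2.35 in lung.

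**Figure D4:**
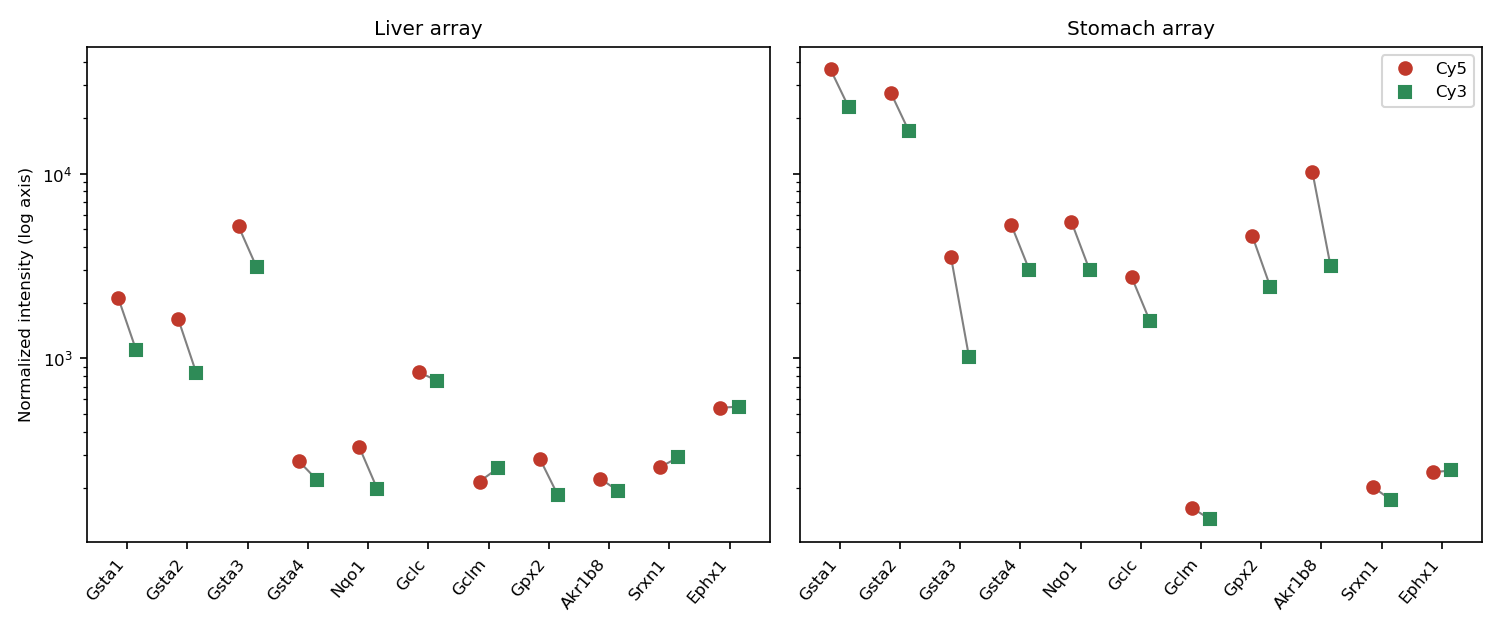
Normalized intensity (y axis, log scale) in Cy5 (red circles, left of each pair) and Cy3 (green squares, right) of the alpha-class Gst genes and the NRF2-linked enzymes on the liver array (left) and the stomach array (right). Lines join the channels of 1 gene; Akr1b8 in stomach is at 10177 in Cy5 and 3170 in Cy3, and Ephx1 is near level on both arrays.

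The regulators and further targets of the same pathway were read from lists chosen for this tissue and pathway. Of 9 NRF2 regulators none reached 2-fold in liver or stomach, with medians of 0.03 and -0.12. Nfe2l2, which encodes NRF2, had 1198 in Cy5 and 943.4 in Cy3 in stomach (log2 ratio 0.34, SD 0.25 between probes), and Keap1 had 595.3 in Cy5 and 523.6 in Cy3 (log2 ratio 0.19, scanner error 0.19). In lung Nfe2l2 (-1.13) and the repressor Bach1 (-1.59) were in the down list, and the small Maf gene Maff (1.56) and the KEAP1 ligase scaffold Cul3 (1.27) were in the up list. Of 21 other NRF2 targets 14 were above 0 in stomach, beside 50.2% of all genes. There the malic enzyme Me1 (1.37) and the peroxiredoxin Prdx1 (3599 in Cy5 and 1676 in Cy3) were at least 2-fold higher in Cy5. The aldehyde dehydrogenase Aldh3a1 (-1.13) was at least 2-fold lower in Cy5 in stomach. In liver none of 20 measured targets reached 2-fold, the highest being the carbonyl reductase Cbr1 at 0.90. In lung 8 of the 21 were in the up list, against 6.78% of all genes, among them Me1 and, as the highest, Akr1c13 at 2.99, and none was in the down list, against 12.3% of all genes.

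Glutathione reductase Gsr was the highest of 18 genes of glutathione supply and use in stomach, with 1492 in Cy5 and 782.4 in Cy3 (log2 ratio 0.93, SD 0.22 between 3 probes). Cth, which makes cysteine from cystathionine (-1.34), and the glyoxalase Hagh (-1.20) were 2-fold lower in Cy5 there. In liver no gene of that list reached 2-fold, from the cystathionine synthase Cbs at -0.78 to the microsomal transferase Mgst1 at 0.37. In lung 5 of the 18 were in the up list (6.78% of all genes), led by the microsomal transferase Mgst3 at 2.73. In the down list (12.3% of all genes) were 3 of the 18, Cth, Mat1a and Mgst1, which is near the share of all genes. Of 18 other conjugation and cofactor genes, the arsenic methyltransferase As3mt (1.08) was 2-fold higher and the soluble epoxide hydrolase Ephx2 (-1.35) 2-fold lower in Cy5 in stomach. In lung Ephx2 was in the up list at 3.49, as were Ugdh (2.05), which makes UDP-glucuronic acid for Ugt enzymes, the transporter of that sugar Slc35d1 (1.37) and the thiopurine methyltransferase Tpmt (1.33), while the methyltransferases Inmt (-4.29) and Nnmt (-1.42) were in the down list.

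Of 14 xenobiotic receptors and liver transcription factors, none reached 2-fold in liver or stomach, with medians of -0.10 and -0.03. Of those reported here, the pregnane X receptor Nr1i2 (1.07) was in the lung up list, and in the down list were Foxa2 (-2.56), the constitutive androstane receptor Nr1i3 (-2.17), the aryl hydrocarbon receptor Ahr (-1.76) and Stat5b (-1.11). Of 13 transporters of conjugates and drugs none reached 2-fold in liver or stomach. In lung 2 of the 13, Abcc4 (2.73) and Abcc3 (2.53), were in the up list (6.78% of all genes). None of the 13 was in the down list (12.3% of all genes). The lung up list that holds the Ugt2 and Sult1 genes also held 3 of 4 bile duct markers, Krt19 (3.69), Epcam (2.86) and Krt7 (2.17). It held 1 of 5 intestinal markers, Vil1 (5.07), and 2 of 6 hepatocyte markers on the design, Apob (1.72) and Alb (1.55). The other markers of these groups were in neither lung list. The part of such cell types in the Ugt2 and Sult1 values was not tested.

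By the authors' own lists, which for liver and stomach also hold ratios below 2-fold, members were in the liver up list for 11 of 57 (19.3%, against 1.73% of all genes) and in the liver down list for 6 (10.5%, against 1.35%). In the stomach lists, 14 members were up (24.6%, against 5.12%) and 1 was down (1.75%, against 4.29%). In the lung lists, 16 were up (28.1%, against 6.78%) and 9 were down (15.8%, against 12.3%). Members were brighter than the average gene, and the part of brightness in these shares was not tested. A gene counted as listed where any of its probes was: Ces2 (1 of 2 probes in each organ, the same probe), Gpx2 and Gsta2 were in all 3 up lists, and Srxn1 (1 of 3 probes) and Gstp1, Gstm1, Sult1b1 and Ugt1a6b (1 of 2 probes each) were in the stomach up list through 1 probe. Gsta3 and Nqo1 were up in liver and stomach, Akr1b8, Gsta4, Srxn1 and Sult1b1 were up in stomach and lung, and Ces1, Ces5 and Gstm2 were up in liver and down in lung. The members not described above, Gstm4, Gstm7, Gstk1, Gsto2, Gstt1, Gstt3, Ugt2b1, Ugt2b5, Ugt3a2, Sult4a1 and Ces6, had log2 ratios between -0.39 and 0.39 wherever they were measured and were in no lung list.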

How the data were processed

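Total RNA (500 ng) was isolated with a Qiagen kit and labelled with Cy3 or Cy5 by Agilent linear amplification, per the labels' protocols, and the scanner software was Agilent Feature Extraction 8.5.1.1, per the submitters' processing notes. The deposited intensity columns hold each spot's mean signal and local background in both channels, not normalized, per the file headers. The deposited log10 ratio sets processed red (Cy5) over processed green (Cy3) signal and comes with the software's error, and the deposited p-value tests that ratio for 1 spot, per the file headers. The authors' deposited table holds log10 ratios of listed spots. At the same spot number its 951 liver and 3042 stomach values equalled the scanner ratios within 0.005. Scanner values of the lung array were not analysed here, so lung rests on that table, read as sharing the design of the other arrays. Ratios were changed to log2.

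Backgrounds were corrected with normexp (offset 50) and each array normalized by loess, with limma 3.58.1 in R 4.3.3. Controls had weight 0 in the loess. With this offset, dim genes have ratios closer to 0. Outlier spots, probes not well above background in either channel and probes saturated in both were left out. Spots were averaged per probe, and probes per gene name on the array. Normalized intensities are back-transformed from the normalized mean brightness and ratio. Median gene spots read 152 in Cy5 and 180 in Cy3 in liver and 163 in Cy5 and 171 in Cy3 in stomach, against 67.7 and 127 and 68.4 and 119 for negative controls. The number of arrays, 1 per organ, limits the precision: errors are the SD between probes or spots or the scanner software's error, and cover measurement only. Values by organ for 1 gene come from the normalization above in liver and stomach and from the authors' table in lung. The loess step was tested on simulated data.

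A gene was counted at 2-fold (log2 ratio of 1). The genes named were those at 2-fold, the extremes of each family per array, the 7 NRF2-linked enzymes, the lung-listed members of largest size, members on the same or opposite sides in several organs, members whose probes differ by over 1 log2 unit, and, from other lists, genes at 2-fold and list extremes. Members and lists were chosen with earlier results of these data known. Alternatives were the scanner's ratio, offset 16, median centring, no background correction, other filters on dim spots, the brightest probe and, for lung, every probe listed or at least 3-fold. RefSeq GRCm38.p6 gave current symbols (57 of 57 matched, 6 changed), gene order and promoters. Python 3.11.15, numpy 2.4.6 and pandas 2.3.3 were used for later steps. Values of a gene of the transcription factor list are not reported here.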

Additional observations from a re-analysis of the deposited data

Results flagged for a closer look

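Gstm2 and Ces1 were on opposite sides in liver and lung. On the scanner software's scale, which the authors' table also uses, Gstm2 had a log2 ratio of Cy5 over Cy3 of 1.45 in liver and -2.09 in lung. Ces1 had 2.20 in liver and -1.55 in lung. With 1 array per organ the difference between organs was not tested, and the lung comparison was made against a Wt mouse while the liver comparison was made within 1 AID Tg mouse.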

How the results depend on the processing

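Of the alternative values of the member counts and of the overall medians, 44 stayed close to the reported ones and 4 moved. A median counted as close when it moved by less than the pooled SD between probes (0.40 in liver, 0.31 in stomach). That SD is not the spread of a median over members. By this rule the member medians with median centring, 0.26 in liver against 0.04 and 0.33 in stomach against 0.21, counted as close. Median centring without loess gave 7 Cy5-high members in liver (Gsta1, Gsta2, Gsta3 and Sult1e1 were added) and 16 in stomach, and the scanner software's ratio gave 4 Cy5-high and 3 Cy3-high members in stomach. Median centring in stomach also raised the Gsta median to 1.90 and the median of the NRF2-linked enzymes to 1.57, with Akr1b8 at 2.65, Gsta3 at 2.57, Gpx2 at 1.79, Nqo1 at 1.77 and Gclc at 1.57. Over both arrays and all settings, 18 values moved, family medians beyond the pooled SD and single genes beyond their probe SD or scanner error. The 12 changes of sign are given next. Family medians near 0 changed sign. In liver, median centring gave 0.16 for the other Gst genes, 0.11 for Ugt1, 0.14 for Ugt2, Ugt3 and Ugt8 and 0.0094 for Sult1, no background correction gave 0.0144 for Ugt1, and the scanner ratio gave -0.0045 for the other Sult genes. In stomach, the Ugt2, Ugt3 and Ugt8 median was 0.23 with the scanner ratio, 0.0320 with offset 16 and 0.0732 without a filter, and the median of the other Sult genes was -0.0550 with median centring, -0.15 with both channels above background and -0.0475 with the brightest probe. The cause of these shifts was not tested. Over all genes, counts at 2-fold depended on the setting, with 551 Cy5-high and 435 Cy3-high genes in liver and 1107 and 1064 in stomach by the scanner ratio, and 112 and 7 in liver by median centring. The lung counts were 14 up and 8 down with every probe listed and 14 up and 7 down at 3-fold. No paired analysis was possible because each organ had 1 array. Dim genes, with scanner errors above their ratios, carry no direction here.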

Other observations

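Carbonyl reductases stood beside the alpha-class transferases in liver. Cbr1, which reduces quinones and prostaglandins, had 1902 in Cy5 and 1022 in Cy3 (log2 ratio 0.90, scanner error 0.18), and Cbr3 had 398.1 in Cy5 and 218.0 in Cy3 (log2 ratio 0.87, scanner error 0.25). In stomach Cbr1 had 3149 in Cy5 and 2735 in Cy3 (log2 ratio 0.20, scanner error 0.16), and in lung it was in the authors' up list at 1.52. Among uptake transporters of the liver, Slco1b2 had 4034 in Cy5 and 2615 in Cy3 (log2 ratio 0.63, scanner error 0.17), while Slco1a4 had 447.5 in Cy5 and 817.5 in Cy3 (log2 ratio -0.87, scanner error 0.19). The glucose-activating enzyme Ugp2, which supplies UDP-glucose, had 1518 in Cy5 and 2542 in Cy3 in liver (log2 ratio -0.74, SD 0.16 between 2 probes). None of these reached 2-fold in liver.

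The microsomal glutathione transferases took different sides in lung and 1 side in stomach. In stomach Mgst3 had 1250 in Cy5 and 687.1 in Cy3 (log2 ratio 0.86, with an SD of 0.10 over 3 probes), Mgst1 had 1490 in Cy5 and 857.2 in Cy3 (log2 ratio 0.80, with an SD of 0.21 over 2 probes) and Mgst2 had 10104 in Cy5 and 6103 in Cy3 (log2 ratio 0.73, scanner error 0.17). In lung Mgst3 (2.73) and Mgst2 were in the authors' up list and Mgst1 (-1.13) in the down list.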
